A study of Mus musculus with 12 samples.

Results

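The genes described here are Nsun5, Prrc2a, Pln, Wbp1 and Pom121, 5 of the 24421 genes listed for a mouse bile duct cell line in which β-catenin was silenced or activated. Nsun5, Prrc2a and Pln were selected on their measured levels: their mean was lower after silencing and higher after activation than in the matching controls, and for Wbp1 the reverse. Pom121 was taken with them as the gene that overlaps Nsun5 on the opposite strand. The levels in these 2 comparisons therefore chose the genes, and they are given below as a description, without a test.

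RNA was sequenced from SMCC, an immortalized line of small mouse cholangiocytes, as 12 libraries in 4 groups of 3. The siCTL group received a control siRNA and the sibcat group an siRNA against Ctnnb1, the β-catenin gene, both for 24 h. The eGFP group received a plasmid for a fluorescent protein and the S45Y group a plasmid for the stable S45Y mutant of β-catenin, both for 48 h and with another transfection reagent. All 4 groups are thus transient transfections of 1 line, and the labels do not say whether the 3 libraries of a group came from separate cultures, so the spread between them may be technical. sibcat was compared with siCTL (silencing) and S45Y with eGFP (activation). The plasmid libraries were also compared with the siRNA libraries. The choice of genes did not use this contrast itself, but it used levels in the same libraries.

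The 5 genes have separate textbook roles. Nsun5 is a methyltransferase that places 5-methylcytosine on the large ribosomal RNA, and Prrc2a is a proline-rich protein that has been described as a reader of N6-methyladenosine, the most common internal mark of messenger RNA. Pom121 is a membrane-spanning nucleoporin that helps to anchor the nuclear pore. Pln (phospholamban) is a small membrane protein best known from heart muscle, where it holds back the calcium pump of the sarcoplasmic reticulum, and Wbp1 carries proline-rich motifs that are bound by WW domains such as that of the Hippo effector Yap. β-catenin itself joins cells at adherens junctions and, in the nucleus, serves as the coactivator of the TCF/LEF factors of the Wnt pathway.

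TCF/LEF factors bind DNA at a core written CTTTGA or CTTTGT, so the promoters are shown for 3 of the genes that moved oppositely. RefSeq windows of 250 bases before the RefSeq start of transcription (build GRCm38.p6) matched 4 of the 5 genes by symbol, all but Nsun5. The gene bounds printed below come from GENCODE M21. By those bounds the windows of Prrc2a, Pln and Wbp1 reach into their genes, so distances hold for the RefSeq start only. The Prrc2a window is chr17:35164878-35165127 on the minus strand, the Pln window chr10:53337436-53337685 on the plus strand and the Wbp1 window chr6:83121462-83121711 on the minus strand. Each is printed 5′ to 3′ on the strand of its gene, and capitals mark the 6-base core or its reverse complement, searched on both strands.
Prrc2a: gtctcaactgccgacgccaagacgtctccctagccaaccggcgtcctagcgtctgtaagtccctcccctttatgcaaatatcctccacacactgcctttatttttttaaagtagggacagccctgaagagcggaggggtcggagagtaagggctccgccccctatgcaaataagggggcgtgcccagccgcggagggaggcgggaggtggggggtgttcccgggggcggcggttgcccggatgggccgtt
Pln: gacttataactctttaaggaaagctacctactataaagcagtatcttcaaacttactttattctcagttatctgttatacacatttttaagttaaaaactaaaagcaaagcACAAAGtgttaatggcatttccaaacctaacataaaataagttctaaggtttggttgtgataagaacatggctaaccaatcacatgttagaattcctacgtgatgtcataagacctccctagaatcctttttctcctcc
Wbp1: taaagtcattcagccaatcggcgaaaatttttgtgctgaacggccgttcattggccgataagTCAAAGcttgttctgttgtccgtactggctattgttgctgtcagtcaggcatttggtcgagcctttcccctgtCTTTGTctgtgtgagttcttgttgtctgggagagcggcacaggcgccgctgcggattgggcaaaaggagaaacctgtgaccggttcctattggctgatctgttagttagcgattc
The Prrc2a window held no core. The Pln window held 1 core, whose first base lay 139 bases before the start, and the Wbp1 window held 2, at 188 and 115 bases. The Pom121 window, which is not printed, held 1 at 216 bases. None of the 4 windows held the 7-base form, in which A or T follows the core. Among 32851 RefSeq promoter windows of the same length, 27.6% held the 6-base core and 14.8% the 7-base form. GC content was 32.8% in Pln, 50% in Wbp1, 62% in Prrc2a and 64% in Pom121, around a median of 52.4% over all windows. A match describes the letters and is not a binding site.

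The libraries were shallow, with 221767 to 326686 counts in siCTL, 295677 to 313074 in sibcat, 113481 to 122304 in eGFP and 91468 to 117419 in S45Y. Intervals and limits given below cover counting error only, and a library with 0 counts is read as having at most 3. Rn45s, the precursor of ribosomal RNA, took 3.64 to 5.49% of the counts in siCTL, 1.61 to 2.44% in sibcat, 10.03 to 15.4% in eGFP and 10.2 to 15.03% in S45Y. siCTL replicate 1 and S45Y replicate 1 had the fewest counts and the largest Rn45s share of their groups, and both also had the highest Nsun5, Prrc2a and Pln levels of their groups. With Rn45s left out of the table the log2 fold change of Nsun5 was -1.37 in silencing and 1.06 in activation and that of Prrc2a -1.69 in silencing, nearly the values with it. The part of depth and of RNA quality in the results was not tested. Ctnnb1, the silenced gene, had 13, 38 and 28 counts in siCTL and 0, 11 and 3 in sibcat, with no overlap, while eGFP (6, 11 and 10 counts) and S45Y (11, 4 and 18 counts) overlapped. Of 13 cholangiocyte markers, 10 had counts, among them Krt8, Krt18, Krt19 and Spp1, but Epcam, Cftr and Aqp1 were at 0 in every library. Of the 5 hepatocyte markers only Hnf4a had any count. The RNA is from bulk cultures, where fewer cells that express a gene and less RNA per cell cannot be told apart.

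Levels are given as CPM, counts relative to the library total, scaled with edgeR's TMM factors over all 12 libraries. Of the 5 genes, 3 did not overlap between siCTL and sibcat (Nsun5, Prrc2a and Pln, all lower in sibcat). That pattern, every sibcat library below every siCTL library, was present in 7.89% of the 3484 genes tested. By measured values in activation, Prrc2a and Pln were higher in every S45Y library than in any eGFP library. Pom121 and Wbp1 were lower in every one, also by measured values. Among the 1819 genes tested in activation these shares were 5.06% for higher and 5.99% for lower. Prrc2a, Pln and Wbp1 did not pass the filter on low counts there, and among the 6070 genes with at least 30 counts in all libraries together the shares were 5.19% and 4.86%. Only Prrc2a and Pln therefore had groups apart by measured values in both comparisons and in opposite directions. Because these same comparisons chose the genes, the shares are background and nothing is read from them.

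**Figure D1:**
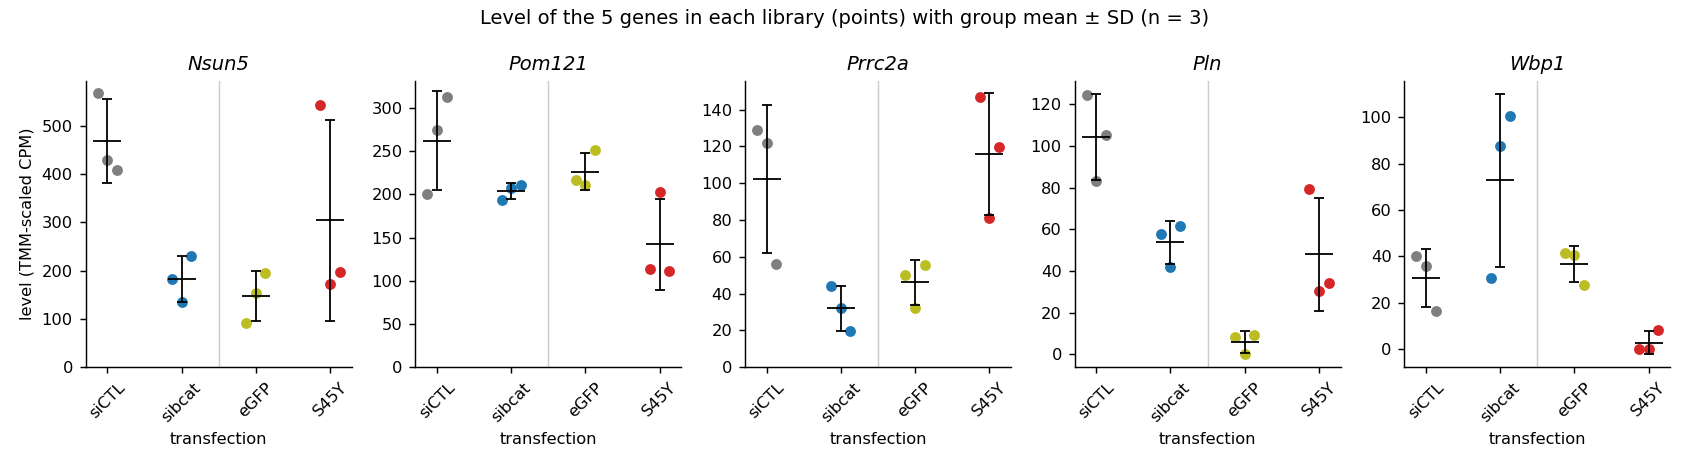
Level of the 5 genes in TMM-scaled CPM (vertical axis, a separate scale for each gene) in every library (points), by transfection, with the group mean and SD (bars, n = 3). Prrc2a and Pln are lower in every sibcat library than in siCTL and higher in every S45Y library than in eGFP, Wbp1 is at 0 in 2 of the 3 S45Y libraries, and S45Y replicate 1 stands above the other plasmid libraries for Nsun5.

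Nsun5 (ENSMUSG00000000916.15) lies on chromosome 5 of mm10 from 135369953 to 135376805, plus strand, and was the most abundant of the 5 genes per length in siCTL. It had 128, 144 and 124 counts in siCTL, or 569, 429 and 408 CPM, and 54, 42 and 71 counts in sibcat, or 184, 136 and 230 CPM. The highest sibcat library was below the lowest siCTL library, and the means were 469 ± 87.3 and 183 ± 47.0 CPM (SD, n = 3 each). This corresponds to a log2 fold change of -1.38 (standard error, SE, 0.20). Leaving out each library in turn kept this direction.

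In activation the separation was weaker for Nsun5. The eGFP libraries had 11, 19 and 21 counts (91.7, 154 and 195 CPM) and the S45Y libraries 48, 17 and 23 counts (543, 173 and 196 CPM). S45Y replicate 1 was far above everything else, while the other S45Y libraries lay within or barely above the eGFP range, so the groups overlapped. The means were 147 ± 52.0 and 304 ± 207 CPM (SD, n = 3 each), which is a log2 fold change of 1.06 (SE 0.37) that was 0.36 without S45Y replicate 1. The opposite movement of Nsun5 was thus a clear gap in silencing and in activation a difference that 1 library carried. In the order siCTL, S45Y, sibcat, eGFP from high to low, the S45Y range reached across those of all 3 other groups, and sibcat and eGFP overlapped each other.

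Prrc2a (ENSMUSG00000024393.14), on chromosome 17 from 35149076 to 35164897, minus strand, differed in both comparisons in every library. Its counts were 29, 41 and 17 in siCTL (129, 122 and 55.98 CPM) and 13, 10 and 6 in sibcat (44.2, 32.4 and 19.4 CPM). They were 6, 4 and 6 in eGFP (50.01, 32.4 and 55.7 CPM) and 13, 8 and 14 in S45Y (147, 81.3 and 120 CPM). The control groups thus sat at different levels, and S45Y ended where siCTL was. The mean went from 102 ± 40.3 to 32.0 ± 12.4 CPM in silencing, a log2 fold change of -1.69 (SE 0.42), and from 46.1 ± 12.1 to 116 ± 33.0 CPM in activation, 1.35 (SE 0.59; SD, n = 3 each). The lowest siCTL library (55.98 CPM) and the highest sibcat library (44.2 CPM) were separated by a small gap. In order of level, S45Y and siCTL overlapped, as did eGFP and sibcat. The lowest siCTL library was barely above the highest eGFP library (55.7 CPM), while S45Y was clear of both low groups.

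Pln (ENSMUSG00000038583.13), on chromosome 10 from 53337667 to 53345987, plus strand, also kept its groups apart in both comparisons by its measured values. It had 28, 28 and 32 counts in siCTL (124, 83.3 and 105 CPM) and 17, 13 and 19 in sibcat (57.8, 42.1 and 61.5 CPM). The means were 104 ± 20.5 and 53.8 ± 10.3 CPM (SD, n = 3 each), which is a log2 fold change of -0.97 (SE 0.35), the smallest of the 3 genes that were lower in every sibcat library. In the plasmid libraries Pln was close to the detection limit. eGFP had 1, 0 and 1 counts (8.33, 0 and 9.28 CPM) and S45Y 7, 3 and 4 counts (79.2, 30.5 and 34.2 CPM). The ratio of the S45Y to the eGFP level was 8.08, with a counting interval from 1.86 to 73.3 (exact 95%). A fitted fold change rests on 2 counts in eGFP and moved with the prior count. By measured values siCTL lay above every library of the other groups, sibcat and S45Y overlapped, and eGFP was below all. The exact 95% Poisson limit for 1 count is 5.57 counts, above the 3 and 4 counts of S45Y replicates 2 and 3. A separation library by library in activation is therefore not shown at this depth.

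Wbp1 (ENSMUSG00000030035.14), on chromosome 6 from 83119044 to 83121559, minus strand, was the gene with the reverse pattern and the lowest counts. siCTL had 9, 12 and 5 counts (40.0, 35.7 and 16.5 CPM) and sibcat 9, 27 and 31 counts (30.6, 87.4 and 100 CPM). sibcat replicate 1 lay inside the siCTL range and the other sibcat libraries above it, so the groups overlapped. The means were 30.7 ± 12.53 and 72.8 ± 37.1 CPM (SD, n = 3 each), with a log2 fold change of 1.23 (SE 0.47). eGFP had 5, 5 and 3 counts (41.7, 40.5 and 27.9 CPM), whereas S45Y had 0, 0 and 1 (0, 0 and 8.54 CPM). The eGFP level was 11.3 times that of S45Y, with a counting interval from 1.69 to 478 (exact 95%). The width of that interval reflects the single count in S45Y. siCTL, eGFP and sibcat overlapped in pairs, and the measured S45Y levels were below those of every other library. At up to 3 counts the S45Y libraries listed at 0 could reach 33.9 and 30.5 CPM, above the lowest siCTL and eGFP libraries, so a separation library by library is not shown at this depth.

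Pom121 (ENSMUSG00000053293.9), on chromosome 5 from 135376141 to 135394546, minus strand, did not show the opposite pattern. It had 45, 92 and 95 counts in siCTL (200, 274 and 313 CPM) and 57, 64 and 65 in sibcat (194, 207 and 210 CPM). The groups overlapped, at means of 262 ± 57.3 and 204 ± 8.86 CPM, and the log2 fold change was -0.41 (SE 0.21). In eGFP it had 26, 26 and 27 counts (217, 211 and 251 CPM) and in S45Y 10, 20 and 13 (113, 203 and 111 CPM). Every S45Y library was below every eGFP library, at means of 142 ± 52.6 and 226 ± 21.5 CPM (SD, n = 3 each), with a log2 fold change of -0.63 (SE 0.37). The estimate was thus negative in both comparisons for Pom121, while that of Nsun5 changed sign.

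**Figure D2:**
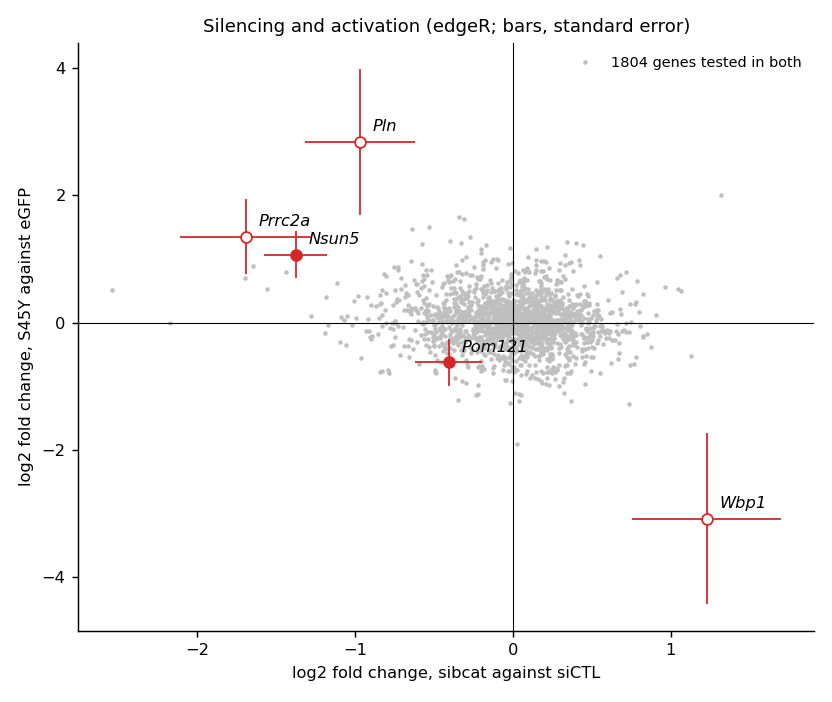
Log2 fold change in silencing (horizontal axis, sibcat against siCTL) and activation (vertical axis, S45Y against eGFP) from edgeR for the 5 genes (red, bars give the standard error) and the 1804 genes tested in both (grey). Open circles mark Prrc2a, Pln and Wbp1, which did not pass the filter in activation, and for Pln and Wbp1 the vertical position depends on the prior count. Nsun5, Prrc2a and Pln lie at upper left, Wbp1 at lower right and Pom121 at lower left.

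Nsun5 and Pom121 run towards each other, and the annotation (GENCODE M21) gives them 665 exon bases in common at their 3′ ends, 15.4% of the exon bases of Nsun5 and 11.9% of those of Pom121. Whether the counting used the strand is not given in the sources used here, so reads in the shared bases cannot be placed. The split of counts between the genes was therefore examined. Nsun5 took 63.9% ± 9.03 of the counts of the pair in siCTL and 46.8% ± 6.49 in sibcat, with library values of 56.6 to 74.0% and 39.6 to 52.2%. It took 38.6% ± 7.69 in eGFP (29.7 to 43.8%) and 64.2% ± 18.4 in S45Y (45.9 to 82.8%; SD, n = 3 each). The share, unlike the Nsun5 level, did not overlap between the groups in either comparison. It is built from the Nsun5 counts that chose the gene and carries no test. Over all siRNA libraries Nsun5 took 57.4% of the counts of the pair (Wilson 95% interval 54.3 to 60.5%) and over all plasmid libraries 53.3% (47.2 to 59.2%), so the intervals overlapped.

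**Figure D3:**
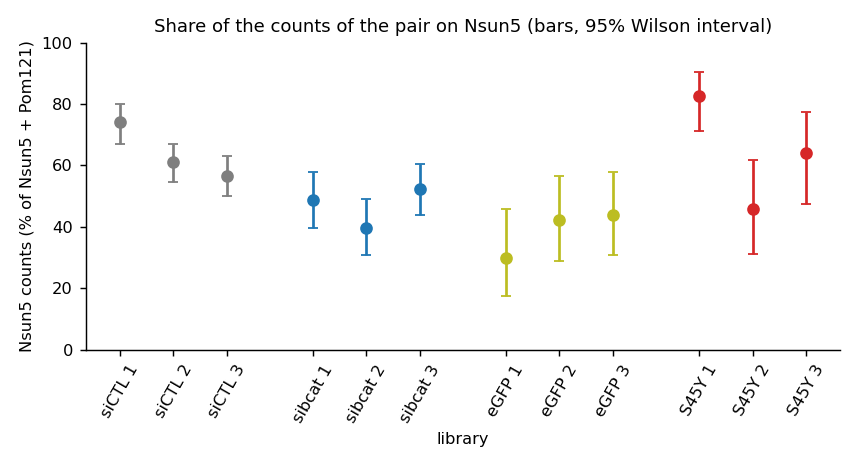
Share of the summed Nsun5 and Pom121 counts that fell on Nsun5 (vertical axis, %) in each of the 12 libraries (points), with 95% Wilson intervals for counting error (bars). The share is 56.6 to 74.0% in siCTL against 39.6 to 52.2% in sibcat, and 29.7 to 43.8% in eGFP against 45.9 to 82.8% in S45Y.

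Pln has neighbours on the opposite strand as well. Its exons share 141 bases with Cep85l, which had 2 counts in all libraries together, and 1644 bases (59.6% of its exon bases) with Gm47644, an annotated intronic transcript that is not among the genes counted. Pln counts are uncertain to that extent. The exons of Prrc2a and Wbp1 overlapped no other counted gene.

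**Figure D4:**
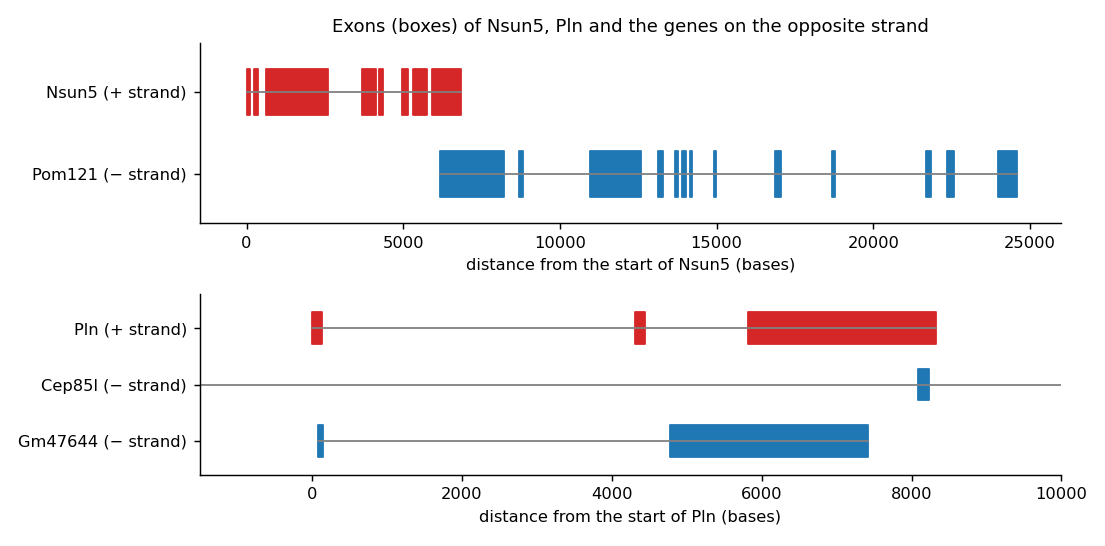
Exons (boxes) of Nsun5 and Pom121 (top) and of Pln, Cep85l and Gm47644 (bottom), drawn to scale against the distance in bases from the start of Nsun5 or Pln, one row per gene and strand (GENCODE M21). The last exons of Nsun5 and Pom121 share 665 bases, and the Gm47644 exons cover 1644 exon bases of Pln.

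Genes within 100 kb were examined next. Around Prrc2a 27 other listed genes lay in that window, of which 3 were tested in silencing. Around Wbp1 there were 20, of which 8 were tested. None of these 11 passed an adjusted p of 0.05 (edgeR quasi-likelihood test, Benjamini-Hochberg adjustment), which 1.55% of all genes tested did, and around Nsun5, Pom121 and Pln no other gene was deep enough to be tested. In the contrast of plasmid with siRNA libraries described below, in which 28.8% of all genes tested passed, no call is counted for Clic1 near Prrc2a and Slc4a5 near Wbp1, which the filter admitted only through the libraries where they are high. Loxl3, near Wbp1, was lower in the plasmid libraries (log2 fold change -0.42, edgeR adjusted p = 0.000477). Loxl3 had mean levels of 1387, 1739, 1328 and 971 CPM in siCTL, sibcat, eGFP and S45Y, with groups apart in both comparisons, higher and then lower, but it passed in neither (edgeR adjusted p = 0.153 and 0.792).

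Per kilobase of exon, the order of levels in siCTL was Nsun5 at 109 ± 20.2 CPM per kb, Pom121 at 47.0 ± 10.3, Pln at 37.8 ± 7.45, Prrc2a at 13.4 ± 5.27 and Wbp1 at 12.8 ± 5.22 (SD, n = 3 each). Pom121 and Pln, and Prrc2a and Wbp1, differed by less than their spread. In eGFP the order was Pom121 at 40.5 ± 3.86 CPM per kb, Nsun5 at 34.0 ± 12.0, Wbp1 at 15.3 ± 3.19, Prrc2a at 6.03 ± 1.59 and Pln at 2.13 ± 1.85. Pln thus stood above Prrc2a and Wbp1 in siCTL and below both in eGFP, between controls that differ in reagent, time and depth.

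The plasmid libraries were compared with the siRNA libraries as a contrast that did not itself choose the genes, though made of the same libraries. It sets the mean of eGFP and S45Y against the mean of siCTL and sibcat, 6 libraries against 6, and the plasmid libraries differ from the siRNA libraries at once in the nucleic acid, the reagent, the time after transfection, the depth and the Rn45s share, which cannot be told apart. Of the 2996 genes tested, 28.8% passed an adjusted p of 0.05, 16.3% lower and 12.6% higher in the plasmid libraries. Nsun5, Pom121 and Prrc2a were tested there, and none of these 3 passed. For Pln and Wbp1 no call is counted, because edgeR's filter admitted Pln only through the siRNA libraries, where it is high, and did not admit Wbp1.

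Pln had means of 26.9 CPM over the 6 plasmid libraries and 79.1 CPM over the 6 siRNA libraries, and 5 of the 6 plasmid libraries lay below every siRNA library. The fitted log2 fold change was -2.10 (SE 0.50). A two-sided exact permutation test of the log2 CPM, which uses no filter, gave p = 0.0152, where 0.00216 is the smallest p of 6 against 6. The near-absence of Pln in eGFP, which also entered the choice of the gene, is part of this difference, and the p is no independent support. Wbp1 had means of 19.8 and 51.8 CPM in the plasmid and siRNA libraries. Its high sibcat and low S45Y levels, which chose it, make up that difference, while the controls did not differ in this direction (36.7 ± 7.67 CPM in eGFP and 30.7 ± 12.53 CPM in siCTL), so no test is given.

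Nsun5 had means of 225 and 326 CPM in the plasmid and siRNA libraries, a log2 fold change of -0.46 (SE 0.21, edgeR adjusted p = 0.0858), and the exact permutation test gave p = 0.266. Without S45Y replicate 1 its log2 fold change was -0.86 and its adjusted p 0.00102, and without eGFP replicate 3 or sibcat replicate 2 the adjusted p was 0.0274 or 0.0456 (edgeR). Whether Nsun5 differed between the transfection kinds thus depended on single libraries. Pom121 had means of 184 and 233 CPM, a log2 fold change of -0.35 (SE 0.20, edgeR adjusted p = 0.203), with an exact permutation p of 0.169. Its adjusted p was 0.0452 without S45Y replicate 2 (edgeR). Prrc2a had 81.0 and 67.1 CPM, a log2 fold change of 0.37 (SE 0.36, edgeR adjusted p = 0.466), with an exact permutation p of 0.494. This fold change ran from 0.22 to 0.54 as each library was left out and was 0.10 without the filter.

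The members were set beside lists of genes with related roles, and in these lists few genes passed. Among the RNA 5-methylcytosine methyltransferases other than Nsun5, 3 of 7 were tested in silencing, with a median log2 fold change of 0.33, and none in activation. None of the 3 passed, beside 1.55% of all genes tested in silencing. The median over all genes tested was -0.0033 in silencing, 0.0197 in activation and 0.0151 for the plasmid against the siRNA libraries.

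Among 30 nucleoporins other than Pom121, 10 were tested in silencing (median log2 fold change -0.25) and 4 in activation (median -0.25), and none passed, against a background of 1.55% in silencing and 0% in activation. Activation had 0 genes at an adjusted p of 0.05 by edgeR, with 107 of 1819 at an unadjusted p of 0.05, and DESeq2 also gave 0, with 58 at the unadjusted limit. In the plasmid contrast Tpr, which forms the basket on the nuclear side of the pore, rose, as 1 of 8 tested beside 12.6% of all genes (log2 fold change 0.71, SE 0.23, edgeR adjusted p = 0.0133). It had 144 ± 30.2, 117 ± 66.8, 231 ± 5.20 and 192 ± 47.8 CPM in siCTL, sibcat, eGFP and S45Y (SD, n = 3 each). Its adjusted p ran from 0.00088 to 0.0851 as each library was left out, and lay above 0.05 without eGFP replicate 2 or 3, S45Y replicate 1 or 3, or sibcat replicate 2. It was 0.353 without the filter (edgeR).

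Among 23 other writers, erasers and readers of N6-methyladenosine, 1 of 10 tested in silencing passed, beside 1.55% of all genes. This was Prrc2c, a paralogue of Prrc2a, which fell from 446 ± 114 CPM in siCTL to 280 ± 29.3 CPM in sibcat (SD, n = 3 each; log2 fold change -0.69, SE 0.19, edgeR adjusted p = 0.0441). The call depended on the libraries, since the adjusted p was 0.349 without siCTL replicate 1, and 0.067, 0.131 and 0.236 without sibcat replicate 1, 2 and 3. In S45Y and eGFP Prrc2c had 462 ± 127 and 414 ± 11.7 CPM. Prrc2b, another paralogue, had 58.6 ± 20.8 CPM in siCTL and 32.9 ± 3.36 CPM in sibcat (edgeR adjusted p = 0.453). None of the 6 list members tested in activation passed. Igf2bp3, an RNA-binding protein, was higher in the plasmid libraries as 1 of 10 tested beside 12.6% of all genes (log2 fold change 0.40, SE 0.13, edgeR adjusted p = 0.0159), a call that was lost without any 1 of eGFP replicate 1 or 2 or the 3 S45Y libraries, with an adjusted p of up to 0.216, and without the filter (0.792, edgeR).

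The calcium-handling genes of the endoplasmic reticulum include Atp2a2, which encodes SERCA2, the pump that Pln inhibits. Atp2a2 had 322 ± 29.4 CPM in siCTL and 218 ± 27.1 CPM in sibcat but did not pass (log2 fold change -0.58, SE 0.20, edgeR adjusted p = 0.134). It had 293 ± 77.4 CPM in eGFP and 417 ± 64.5 CPM in S45Y (log2 fold change 0.55, SE 0.28, edgeR adjusted p = 0.871; SD, n = 3 each). Of 22 list members other than Pln, 6 were tested in silencing and 3 in activation, and none passed, beside 1.55% and 0% of all genes. Sln and Mrln, which encode relatives of phospholamban, and the release channels Ryr1 and Ryr2 were at 0 in every library.

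In the plasmid contrast 6 calcium-handling genes other than Pln were tested, among them Casq2, for which no call is counted. Calr and Canx passed as higher, beside 12.6% of all genes tested. Calr, the lumenal calcium-binding chaperone calreticulin, rose by a log2 fold change of 1.15 (SE 0.15, edgeR adjusted p = 6.34e-10), from means of 296 and 298 CPM in siCTL and sibcat to 691 and 610 CPM in eGFP and S45Y. Canx, its membrane-bound relative, had a log2 fold change of 0.54 (SE 0.14, edgeR adjusted p = 0.00205), and did not pass without the filter (edgeR adjusted p = 0.388). Casq2, a calsequestrin that binds calcium, was admitted by the filter only through the plasmid libraries and is given by its levels, 6.76 and 4.42 CPM in siCTL and sibcat and 42.2 and 44.0 CPM in eGFP and S45Y, at 39 counts in all. Atp2a2 stood at the threshold, at a log2 fold change of 0.42 (SE 0.17, edgeR adjusted p = 0.0529). This depended on the processing and on single libraries, since the value was 0.24 without eGFP replicate 3 (adjusted p = 0.382) and 0.15 without the filter (0.844), while the adjusted p was 0.0473 by DESeq2, 0.0439 with other size factors and 0.0335 without siCTL replicate 1 (edgeR).

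Muscle markers were inspected because Pln is best known from heart. Of 10, 5 had counts, with a summed level of 223 to 333 CPM in siCTL, 224 to 288 CPM in sibcat, 167 to 288 CPM in eGFP and 239 to 294 CPM in S45Y. In silencing, activation and the plasmid contrast 3, 1 and 3 were tested. None passed, beside 1.55%, 0% and 28.8% of all genes tested. Myh6, Myh7, Actc1, Ryr2 and Myl2 were at 0 throughout, and Ttn, Acta2 and Tnnt2 held most of the counts. The summed cholangiocyte markers ran from 964 to 1339 CPM in siCTL, 903 to 972 CPM in sibcat, 1411 to 1984 CPM in eGFP and 1635 to 2059 CPM in S45Y. Krt8, Krt18 and Spp1 were among the genes higher in the plasmid libraries (3 of 5 tested, beside 12.6% of all genes). The part of these differences in the Pln result was not tested. Of 4 fibroblast and 3 leukocyte markers, 2 and 1 had counts.

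Among 14 WW-domain proteins and their partners other than Wbp1, 4 were tested in silencing (median log2 fold change -0.26) and 2 in activation (median -0.14), and none passed, beside 1.55% and 0% of all genes. In the plasmid contrast no call is counted. Smurf1, a ubiquitin ligase with WW domains, was admitted by the filter only through the siRNA libraries and is given by its levels, 61.7 ± 17.4 and 69.2 ± 7.75 CPM in siCTL and sibcat and 28.5 ± 4.54 and 27.8 ± 24.1 CPM in eGFP and S45Y (SD, n = 3 each).

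How rare the opposite pattern was depended on how it was counted. Groups apart in both comparisons, lower and then higher, were found in 11 of 1804 genes tested in both (0.61%), and higher and then lower in 13 (0.721%). With at least 30 counts in all libraries together, 26 of 6070 genes (0.428%) went lower and then higher, among them Prrc2a and Pln, and 21 (0.346%) higher and then lower. By edgeR with an unadjusted p of at most 0.05 and at least 1.5-fold in both comparisons, 6 of 1804 genes (0.333%) moved oppositely, of which Nsun5 was the 1 described here. By DESeq2 on all genes with a count in both comparisons, the same limits took 5 of 11557 genes (0.0433%), among them Nsun5, Prrc2a, Pln and Wbp1. Just outside these limits, Txndc5 had mean levels of 11.1, 40.4, 43.0 and 5.70 CPM in siCTL, sibcat, eGFP and S45Y, a profile like that of Wbp1. The limits are unadjusted and describe a selection.

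**Figure D5:**
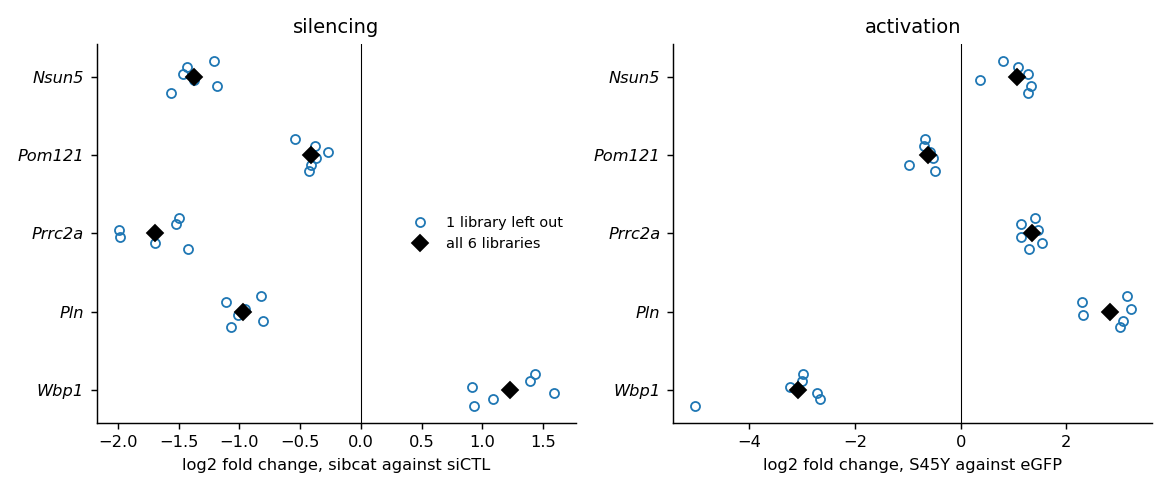
Log2 fold change (horizontal axis) of the 5 genes in silencing (left) and activation (right) with all 6 libraries (black diamonds) and after dropping 1 library at a time (open circles). No estimate crosses 0. Pom121 in silencing comes closest, at -0.27 without siCTL replicate 3, and Nsun5 in activation reaches 0.36 without S45Y replicate 1. Wbp1 in activation spreads widest, from -5.03 to -2.65.

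Over the 12 libraries, after centring the log2 CPM within the siRNA and within the plasmid libraries, Nsun5, Prrc2a and Pln went up and down together, at a Pearson r of 0.76 to 0.79 for the 3 pairs. Against Wbp1 they had an r of -0.63, -0.69 and -0.82. Nsun5 and Pom121 had an r of -0.25. Without the centring, r was 0.62, 0.77 and 0.41 for Nsun5 with Prrc2a, Nsun5 with Pln and Prrc2a with Pln, and -0.28, -0.67 and -0.10 for Nsun5, Prrc2a and Pln with Wbp1, so the link of Pln to Wbp1 was seen only within the transfection kinds. These values contain the differences that chose the genes and share library depth, and they are a description. By the same measure over about 2996 genes, the profile most like Nsun5 was that of Camk4, a calmodulin-dependent kinase (r = 0.913), that most like Pln was Nap1l4, a histone chaperone (r = 0.925), that most like Prrc2a was Ep300, a histone acetyltransferase (r = 0.877), that most like Wbp1 was Selo (r = 0.889), and that most like Pom121 was Ifi27 (r = 0.886, at 47 counts in all). Camk4 was also second for Pln (r = 0.892).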

How the data were processed

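RNA from 12 SMCC libraries was sequenced. Per the submitters' processing notes, reads were handled with Trimmomatic 0.38, aligned to mm10 with HISAT2 2.1.0 and counted with HTSeq 0.11.2. The deposited values used here are these raw counts for 24421 gene symbols, of which 10047 had none in any library. The gene annotation and strand setting are not given in the sources used here. The members and gene lists were chosen with earlier results of these data known.

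Libraries were grouped by their labels and all were used. Counts were fitted with edgeR 4.0.16 under R 4.3.3, after its filterByExpr step (count of 10, total of 15) and TMM scaling, by the quasi-likelihood test (prior count 0.125, Benjamini-Hochberg adjustment). Silencing and activation used 6 libraries each, and plasmid against siRNA all 12. Members that failed the filter were fitted with it lifted for them, without a p. Exact permutation tests used log2 CPM with a prior count of 2. Library pairs of 1 group differed by more than sampling noise. Positions and overlaps came from GENCODE M21 (mm10) and promoters from RefSeq.

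The named genes are the members, list genes with an adjusted p below 0.05, the genes nearest in profile, and those at the limits of the opposite pattern. Camk4 as second for Pln, Atp2a2, Prrc2b, the neighbours within 100 kb and the markers at 0 were named after their values were seen. 1 gene within the limits of the opposite pattern is not reported here. Alternatives were DESeq2 1.42.0, other size factors, no filter, 1 fit of all libraries, no Rn45s, a replicate block, another prior count and each library left out. Scripts were tested on simulated data.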

Additional observations from a re-analysis of the deposited data

How the results depend on the processing

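No member fold change changed sign under any alternative run. With a prior count of 2 the log2 fold change was 1.45 for Pln and -1.35 for Wbp1 in activation, and -1.20 for Wbp1 in the plasmid contrast, since these rest on 1 or 2 counts. Without the filter Nsun5 in the plasmid contrast was -0.74 (adjusted p = 0.00304 from edgeR), while the median of the genes tested moved from 0.0151 to -0.25. Leaving out single libraries gave 31 to 49 genes called in silencing against 54 with all (34 without siCTL replicate 1, 31 without sibcat replicate 2 and 32 without sibcat replicate 3), and -0.97 to -0.49 for Pom121 and -5.03 to -2.65 for Wbp1 in activation. In the plasmid contrast it gave -0.86 to -0.35 for Nsun5, -0.60 to -0.26 for Pom121, and -3.38 to -1.79 for Wbp1. The cause was not tested. Among the list genes, dropping the filter ended the calls of Tpr, Canx and Igf2bp3 (adjusted p 0.353, 0.388 and 0.792 from edgeR), and 1 fit of all libraries that of Prrc2c (0.0897). The replicate numbers did not pair the libraries (correlation of same-numbered deviations -0.046 to 0.047), and with the replicate number as a block 64, 0 and 839 genes were called in silencing, activation and the plasmid contrast, against 54, 0 and 864. Scaling by library totals, an alternative added after seeing the data, left the same genes apart between groups by their measured values (3 in silencing, 4 in activation, Wbp1 among them only if counts of 0 are taken as 0). Depth limits Pln and Wbp1 most, at 0 to 7 counts in the plasmid libraries.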
